A study of Mus musculus with 10 samples.

Results

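Potassium channel subunits were taken as the genes of the deposited count table whose mouse symbol starts with Kcn followed by 1 letter and a number, apart from Kcnj10 and opposite-strand transcripts. The rule found 65 of the 19999 genes in the table. The series holds 10 RNA-seq libraries of retina from BALB/c, a strain of albino laboratory mouse. Of these, 5 came from retinas damaged by light (LD-vehicle) and 5 were controls (CTRL-vehicle). The word vehicle stands in the library names of both groups. Compound A74, which the series' design text names, has no library among those analysed here. The wider study is about the ATP receptor P2rx7 in light damage, and the comparison made here asks how potassium channel transcripts of light-damaged retina differed from those of control retina. No label states how bright or long the light was, when retinas were taken, or the sex and age of the mice. Whether each library came from its own mouse is also not stated, so the p-values reflect differences among libraries that may be technical.

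Potassium channels let potassium ions leave or enter a cell and so set its resting potential and end its electrical responses. Voltage-gated subunits assemble as tetramers that open on depolarisation. Silent modifier subunits form no channel alone and change the behaviour of voltage-gated partners. Inward rectifiers and tandem-pore leak channels hold the resting potential. In photoreceptors the modifier Kcnv2 is part of the outward conductance of the inner segment, and human KCNV2 mutations cause a cone dystrophy with supernormal rod responses.

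The element shared by pore-forming members is the selectivity filter, in which a glycine, an aromatic or leucine residue and a second glycine line the narrowest part of the pore. Its coding sequence is shown for 6 called members and for the abundant members Kcnv2 and Kcnj14, because it shows at a glance which of them carry a pair of pores in 1 chain. Each sequence runs 5′ to 3′ on the coding strand over 27 bases, with the 9 bases of the 3 filter codons in capitals. Letters and positions come from GENCODE M21 on GRCm38, a different build from the GRCm39 named in the submitters' processing notes.
Kcnv2 (chr19:27333651-27333677, plus strand, exon 2): tccaccgtgGGCTATGGAgacatgtac
Kcnj14 (chr7:45819624-45819650, minus strand, exon 2): acgtccataGGCTATGGTgtgcgcagc
Kcnd1 (chrX:7824953-7824963 in exon 1 and chrX:7831172-7831187 in exon 2, plus strand): accacacttGGGTATGGAgatatggta
Kcnh2 (chr5:24325546-24325572, minus strand, exon 7): accagcgtgGGCTTTGGCaatgtctct
Kcnh7 (chr2:62777334-62777360, minus strand, exon 8): accagtgtaGGATTTGGAaatgtgtct
Kcnk1 pore 1 (chr8:125995805-125995814 in exon 1 and chr8:126025012-126025028 in exon 2, plus strand): tccaccacaGGCTATGGCcacacggtg
Kcnk1 pore 2 (chr8:126025326-126025352, plus strand, exon 2): agcaccatcGGCCTGGGGgactatgtt
Kcnk3 pore 1 (chr5:30588590-30588599 in exon 1 and chr5:30621891-30621907 in exon 2, plus strand): accaccatcGGCTATGGTcatgcggcg
Kcnk3 pore 2 (chr5:30622199-30622225, plus strand, exon 2): accaccatcGGCTTCGGCgactatgtg
Kcnk9 pore 1 (chr15:72545997-72546006 in exon 1 and chr15:72513028-72513044 in exon 2, minus strand): acaactatcGGATATGGAcatgctgca
Kcnk9 pore 2 (chr15:72512710-72512736, minus strand, exon 2): actactataGGGTTCGGCgattttgtg
In each of the leak channels Kcnk1, Kcnk3 and Kcnk9 an exon junction lies inside the first filter, and so it does in Kcnd1. Kcnh2 and Kcnh7 share 22 of the 27 bases, and Kcnk3 and Kcnk9 share 21 of 27 in the first pore and 21 of 27 in the second.

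Library totals lay between 17900227 and 20337329 counts in light damage and between 14652535 and 20699236 counts in control. Light damage replicates 1 and 2 stood apart, with 17174 and 20414 counts of Xist, an RNA made from the inactive X chromosome of females, against 1 to 6 in light damage replicates 3 to 5 and 1 to 9 in control. Xist thus marks these libraries, and no others, as female, so sex was not balanced between the groups. Summed lens markers, 9 genes, spanned 21.4 to 7520 CPM, counts scaled to library size, in light damage and 3.28 to 31.4 CPM in control. All 12 rod markers passed the filter on low counts and summed to between 64286 and 89931 CPM in light damage, against between 68970 and 112280 CPM in control. Of the rod markers 1 was called higher and 0 lower. Markers of some inner retinal cells moved with the groups: 6 of 11 bipolar, 2 of 9 amacrine, 2 of 6 horizontal and 5 of 10 Müller glial markers were called higher by edgeR, and 0 lower in each list. Of all genes tested, 5.32% were called higher and 7.85% lower. When light damage replicates 1 and 2 were both left out, 4 bipolar, 1 amacrine, 0 horizontal, 1 Müller glial and 0 rod markers were called by edgeR, and 7, 4, 2, 5 and 2 of them passed an unadjusted p under 0.05. In that fit edgeR called 2.34% of all genes. The share of all genes at an unadjusted p under 0.05 in that fit is not given here, so the unadjusted counts have no background. Summed Müller glial markers spanned 4825 to 6519 CPM in light damage, against 3812 to 4868 CPM in control. The part of these markers in the results below was not tested.

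Levels of the subunits spanned more than 3 orders of magnitude. Per kilobase of longest transcript, Kcnj14, an inward rectifier subunit found in retina, was the most abundant member, with 191 CPM per kb in light damage and 230.4 CPM per kb in control. Kcnv2 had 119 CPM per kb in light damage and 134 in control. Kcna5, a delayed rectifier, had 36.5 CPM per kb in light damage and 33.1 in control. Kcnj9, a G protein-gated inward rectifier subunit, had 33.6 CPM per kb in light damage and 31.0 in control, and the accessory subunit Kcne2 had 32.7 CPM per kb in light damage and 29.1 in control.

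**Figure D1:**
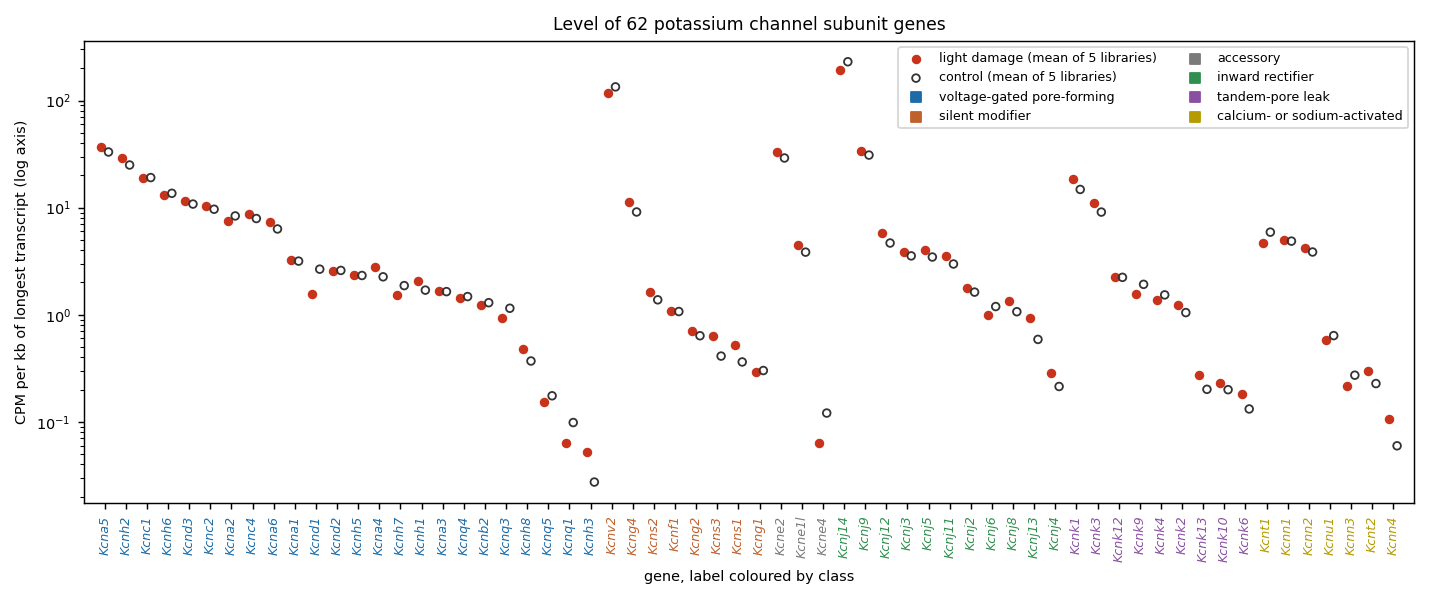
Mean level of 62 subunit genes, in CPM per kb of longest annotated transcript on a log axis, for light damage (filled) and control (open), by class. Kcnj14 and Kcnv2 stand above 100 CPM per kb in both groups, and most members lie below 10.

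By CPM alone, 8 members averaged at least 100 in control, 26 between 10 and 100, 22 between 1 and 10, and 9 under 1. All 65 members together had 4005 ± 180 CPM in light damage, against 4698 ± 267 CPM in control (n = 5 each, ± SD), and the groups did not overlap. In bulk retina fewer cells of a type and less RNA per cell cannot be told apart. Kcnh3, Kcnq1, Kcne4 and Kcnn4 did not pass the filter on low counts and were not tested.

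Light-damaged retina had less Kcnd1, Kcnh7 and Kcnk9 transcript and more Kcnk1, Kcnk3 and Kcnh2. Of the 61 members tested, 3 were called higher and 4 lower at a Benjamini-Hochberg adjusted p under 0.05 in the quasi-likelihood test of edgeR. These 7 are 11.5% of the members, against 13.2% of all 16852 genes tested, 5.32% higher and 7.85% lower. The share of called genes among the subunits was thus near that of the transcriptome. The median log2 fold change, light damage over control, was 0.11 over the members and 0.00165 over all genes tested, and 38 of 61 members had a positive value. When counts were scaled by library totals and not by TMM, 4 members were higher and 2 lower. Without light damage replicates 1 and 2, 1 member was called, against 2.34% of all genes, 0.782% higher and 1.55% lower, and Kcnd1, Kcnh7, Kcnk9, Kcnk1, Kcnk3 and Kcnh2 were not called there.

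**Figure D2:**
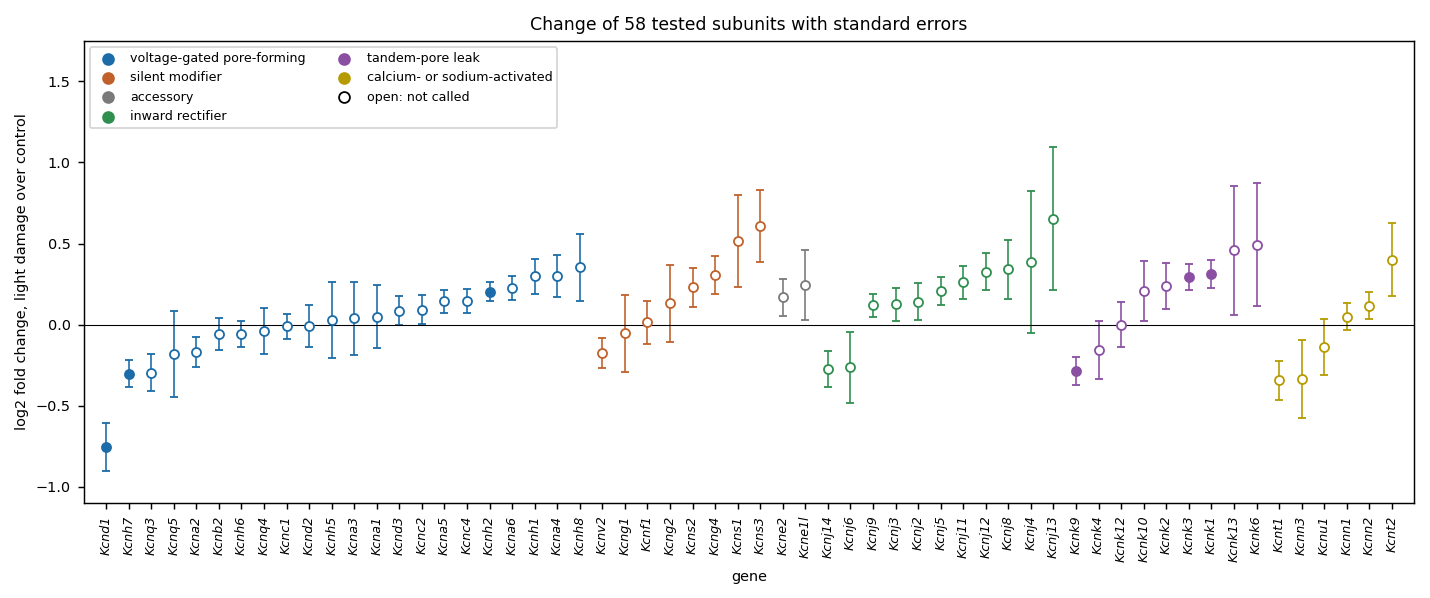
Log2 fold change (light damage over control) with its standard error for 58 tested subunits, grouped by class, with called members filled. Values run from -0.76 for Kcnd1 to 0.65 for Kcnj13, whose standard error is wide.

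Kcnv2 (ENSMUSG00000047298), the silent modifier, had 653, 647, 505, 646 and 585 CPM in light damage replicates 1 to 5, against 672, 749, 539, 769 and 699 CPM in control. The groups overlapped, and replicate 3 was the lowest in both. Replicate 3 of each group also had the lowest summed rod markers, 64286 CPM in light damage, against 68970 CPM in control. The log2 fold change of Kcnv2 was -0.18 (SE 0.09, edgeR adjusted p = 0.226), which does not show that it was unaltered. With the replicate number as a block it was called (log2 fold change -0.17, adjusted p = 0.0358 by edgeR). Set against the 12 summed rod markers, Kcnv2 had 7.70 ± 0.53 counts per 1000 marker counts in light damage and 7.63 ± 0.76 in control (n = 5 each, ± SD). The groups overlapped on that scale too.

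**Figure D3:**
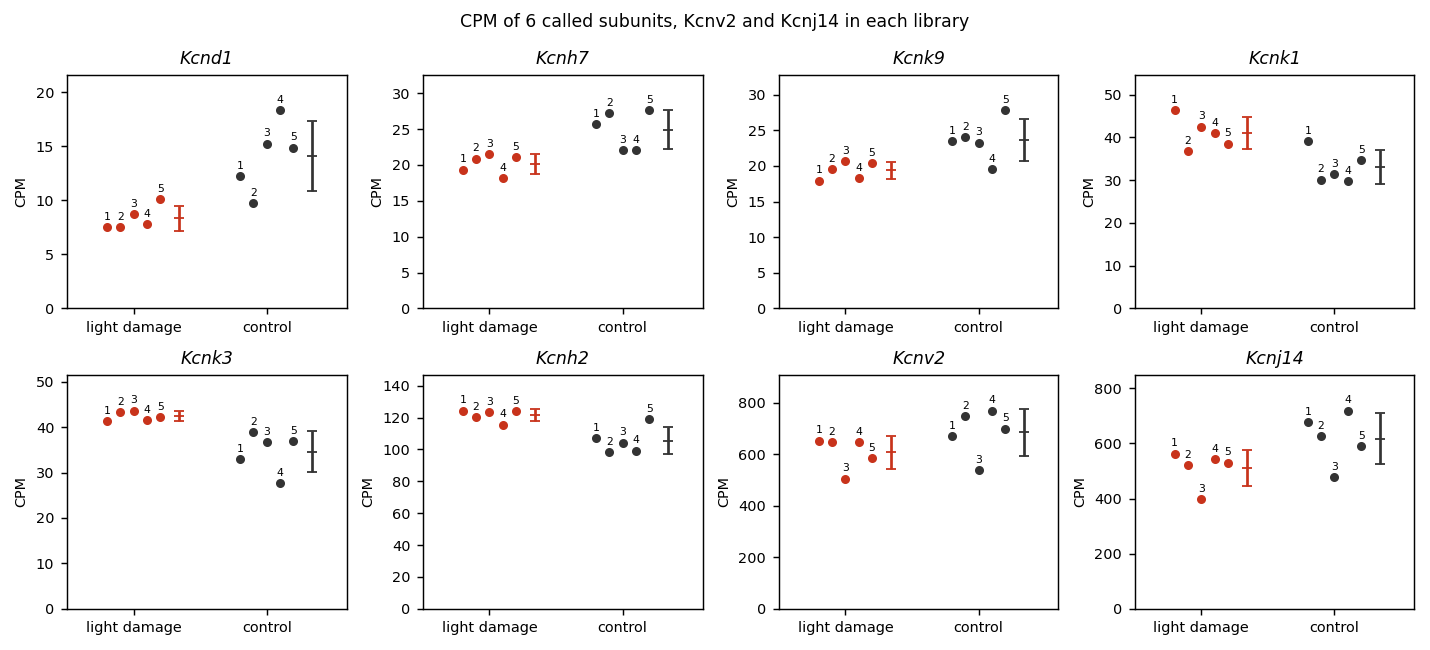
CPM of 6 called subunits, Kcnv2 and Kcnj14 in each library, light damage left of control, with replicate numbers, means and SD (n = 5 each) and axes from 0. Groups are apart for Kcnh7 and Kcnk3, and overlap for the other 6.

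Kcnd1 (ENSMUSG00000009731), a pore subunit of rapidly inactivating A-type current, had the lowest log2 fold change of the tested members. Its level was 7.49, 7.50, 8.71, 7.81 and 10.1 CPM in light damage replicates 1 to 5, against 12.3, 9.71, 15.2, 18.3 and 14.9 CPM in control. Light damage replicate 5 lay just above control replicate 2, and the other 4 light damage libraries lay below all controls. It had a log2 fold change of -0.76 (SE 0.15, edgeR adjusted p = 0.00575). The call held without any single library. It was lost without light damage replicates 1 and 2 together, at a log2 fold change of -0.66 (adjusted p = 0.0679 by edgeR). Those libraries, marked as female by Xist, had the lowest values of Kcnd1, a gene of the X chromosome. The part of sex in this change was not tested.

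The sister A-type subunits Kcnd2 and Kcnd3 were not called by edgeR, DESeq2 or limma-voom. Kcnd3, the most abundant of the 3, had a mean of 82.1 ± 6.88 CPM in light damage, against 77.5 ± 10.9 CPM in control, and Kcnd2 one of 13.3 ± 2.36 CPM in light damage, against 13.4 ± 1.86 CPM in control (n = 5 each, ± SD). Their log2 fold changes were 0.09 (SE 0.09) and -0.01 (SE 0.13). An opposite-strand gene overlaps Kcnd3 in the annotation, and since use of strand in the counting is not stated, reads of such a pair cannot be told apart.

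The ether-à-go-go related subunits Kcnh2 and Kcnh7, which share most bases of the window shown, were called in opposite directions. Kcnh2 (ENSMUSG00000038319), the subunit behind the rapid repolarising current of the heart, had 124, 120.4, 123, 116 and 124 CPM in light damage replicates 1 to 5, against 107, 98.5, 104, 99.3 and 119 CPM in control. Light damage replicate 4 lay below control replicate 5, the single crossing. It had a log2 fold change of 0.20 (SE 0.06, edgeR adjusted p = 0.0311). Kcnh7 (ENSMUSG00000059742) had 19.4, 20.9, 21.5, 18.1 and 21.04 CPM in light damage, against 25.7, 27.2, 22.0, 22.1 and 27.6 CPM in control, with no overlap. This gave a log2 fold change of -0.30 (SE 0.08, edgeR adjusted p = 0.0267).

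Both calls lay near the threshold, and each was lost in some of the fits that leave out 1 library. Over those fits the log2 fold change stayed between 0.18 and 0.25 for Kcnh2 and between -0.35 and -0.26 for Kcnh7. Kcnh2 was no longer called without light damage replicate 1, 2, 3 or 5 or control replicate 2, 3 or 4, with adjusted p up to 0.0806 by edgeR. Kcnh7 was no longer called without light damage replicate 1, 2 or 4 or control replicate 2 or 5, with adjusted p up to 0.0724 by edgeR, nor with scaling by library totals alone (adjusted p = 0.0509). After GC and length trends were taken out the Kcnh7 log2 fold change was -0.10 (adjusted p = 0.415). Without light damage replicates 1 and 2 together, their log2 fold changes were 0.20 (adjusted p = 0.162) and -0.30 (adjusted p = 0.13) by edgeR. Kcnh7 also overlaps the opposite-strand gene Gca, which had a mean of 15.4 ± 1.50 CPM in light damage, against 17.1 ± 1.81 CPM in control (n = 5 each, ± SD), so the same limit holds for this pair. Of the other members of this subfamily, Kcnh1, Kcnh5, Kcnh6 and Kcnh8 were not called.

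Of the 25 voltage-gated pore subunits tested, edgeR called 1 higher and 3 lower, Kcnd1, Kcnh2 and Kcnh7 among them, against 13.2% of all genes. By edgeR 9 had an unadjusted p under 0.05, against 30.3% of all genes. DESeq2 called 6 of the 25, Kcna6 among them, and of all 16852 genes it called 1297 higher and 1590 lower. The 27 genes of this class, 25 of them tested, had a median log2 fold change of -0.01, with 12 positive and 13 negative values. The subunits Kcnc1, Kcnc2 and Kcnc4 had log2 fold changes of -0.01, 0.09 and 0.15. Kcna5 had a log2 fold change of 0.14 (SE 0.07), and 3 of its 5 light damage libraries exceeded every control.

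Of the 9 tandem-pore leak members 2 were higher and 1 lower. The acid-sensitive leak subunits Kcnk3 and Kcnk9, which can assemble with each other, were called in opposite directions. Kcnk3 (ENSMUSG00000049265) had 41.4, 43.3, 43.7, 41.7 and 42.2 CPM in light damage replicates 1 to 5, against 33.0, 38.9, 36.7, 27.7 and 36.9 CPM in control. The light damage libraries lay close together and above all controls, and control replicate 4 was the lowest. Kcnk9 (ENSMUSG00000036760) had 17.95, 19.5, 20.7, 18.3 and 20.4 CPM in light damage, against 23.5, 24.1, 23.3, 19.6 and 27.8 CPM in control. Control replicate 4 fell among the light damage libraries, and the other controls lay above them.

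The log2 fold change of Kcnk3 was 0.29 (SE 0.08, adjusted p = 0.0246) and that of Kcnk9 was -0.28 (SE 0.09, adjusted p = 0.0399), both by edgeR. The ratio of Kcnk3 to Kcnk9 counts was 2.19 ± 0.10 in light damage and 1.47 ± 0.12 in control (n = 5 each, ± SD), without overlap. It was chosen after the values were seen and was not tested. Kcnk3 lost its call without light damage replicate 2 or 3, with adjusted p up to 0.0616. Kcnk9 lost its call without light damage replicate 1, 2, 3 or 4 or control replicate 2, 3 or 5, with adjusted p up to 0.106. The Kcnk9 call was also lost with limma-voom (adjusted p = 0.0557), with library totals alone (adjusted p = 0.0839 by edgeR) and after GC and length trends were taken out (log2 fold change -0.11, adjusted p = 0.362 by edgeR). Without light damage replicates 1 and 2 together they had log2 fold changes of 0.30 (adjusted p = 0.112) and -0.25 (adjusted p = 0.202), by edgeR in each case. Kcnk3 overlaps the opposite-strand gene Gm9899, at 6.51 ± 0.66 CPM in light damage, against 6.82 ± 0.94 CPM in control.

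Kcnk1 (ENSMUSG00000033998), a weakly rectifying leak subunit, had 46.4, 36.8, 42.5, 41.1 and 38.6 CPM in light damage replicates 1 to 5, against 39.2, 30.2, 31.5, 29.8 and 34.7 CPM in control. Control replicate 1 overlapped the light damage libraries, and the other controls lay below them. The annotation has an opposite-strand gene over Kcnk1 that is not analysed here. It had a log2 fold change of 0.31 (SE 0.08, edgeR adjusted p = 0.0246). This call was lost without light damage replicate 1 or 3 or control replicate 2 or 3, with adjusted p up to 0.0711, and without light damage replicates 1 and 2 together (log2 fold change 0.30, adjusted p = 0.0993 by edgeR).

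Inward rectifiers, 11 genes all tested, gave 0 calls by edgeR, DESeq2 or limma-voom, while 9 had positive values and the median log2 fold change was 0.21. At an unadjusted p under 0.05, 19 of the 61 members passed, among them 4 inward rectifiers. These 19 are 31.1% of the members, near the 30.3% of all genes that passed. Kcnj14 (ENSMUSG00000058743) had 563, 522, 399, 544 and 530.4 CPM in light damage replicates 1 to 5, against 678, 626, 477, 719 and 589 CPM in control. Replicate 3 was again the lowest in both groups, and the groups overlapped. The log2 fold change of Kcnj14 was -0.27 (SE 0.11, edgeR adjusted p = 0.119). It was called without control replicate 3 (log2 fold change -0.35, adjusted p = 0.0283 by edgeR) and with the replicate number as a block (log2 fold change -0.27, adjusted p = 0.00277), though the labels do not say that the numbers mark pairs.

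Kcnj5, a G protein-gated subunit, and Kcnj11, the pore of the ATP-sensitive channel, were higher in all 5 light damage libraries than in any control, though neither was called. Kcnj5 had a mean of 18.7 ± 0.76 CPM in light damage, against 16.2 ± 1.74 CPM in control, and Kcnj11 averaged 11.2 ± 0.99 CPM in light damage, against 9.36 ± 0.83 CPM in control (n = 5 each, ± SD). Their log2 fold changes were 0.21 (adjusted p = 0.109) and 0.26 (adjusted p = 0.0964) by edgeR. In all, 5 of 61 members had groups that did not overlap, 8.2% against 9.79% of all genes tested, of which 4.31% were higher and 5.48% lower in light damage. Among these were Kcnh7, Kcnk3, Kcnj5 and Kcnj11. Kcnj13, the inward rectifier of the pigment epithelium, had 46, 16, 13, 26 and 8 raw counts in light damage replicates 1 to 5, against 9, 16, 14, 16 and 7 raw counts in control, with overlap. Its log2 fold change of 0.65 had an SE of 0.44 and was 0.16 without light damage replicate 1. Summed pigment epithelium markers spanned 85.0 to 295 CPM in light damage, against 32.6 to 119 CPM in control.

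The glial inward rectifier Kcnj10, which the naming rule leaves out, spanned 62.5 to 96.1 CPM under light damage and 59.2 to 79.8 CPM in control. Its log2 fold change was 0.14 (SE 0.11, edgeR adjusted p = 0.407).

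Silent modifiers, accessory subunits and the class of calcium- or sodium-activated channels gave 0 calls by edgeR. Kcnu1 was placed in the last class by its symbol letter, not by what gates it. An unadjusted p under 0.05 was reached by 2 silent modifiers and 1 calcium- or sodium-activated member by edgeR. DESeq2 called 1 member of these classes, Kcnt1, and limma-voom called 0. The 8 silent modifiers had a median log2 fold change of 0.18. Kcns3 had the highest value among them, 0.61 (SE 0.22, edgeR adjusted p = 0.0762), at 1.85 ± 0.32 CPM in light damage, against 1.21 ± 0.28 CPM in control (n = 5 each, ± SD). Kcng4, another silent modifier, had a mean of 42.8 ± 4.53 CPM in light damage, against 34.7 ± 6.81 CPM in control. It was called without control replicate 3 (adjusted p = 0.0211 by edgeR). Kcnt1, a sodium-activated channel, had a mean of 30.9 ± 2.99 CPM in light damage, against 39.2 ± 7.70 CPM in control, a log2 fold change of -0.34 (SE 0.12, edgeR adjusted p = 0.0736). It was called without control replicate 2 (adjusted p = 0.021 by edgeR). Kcne2 had a log2 fold change of 0.17 (SE 0.11), the small-conductance channel Kcnn1 one of 0.05 (SE 0.08) and Kcnu1, a channel known from sperm, one of -0.14 (SE 0.17). Kcnf1 and Kcns2, both silent modifiers, had log2 fold changes of 0.01 (SE 0.13) and 0.23 (SE 0.12).

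The 54 members that were not called had log2 fold changes between -0.34 and 0.65, 35 of them positive and 19 negative. Libraries of the control group were the more variable for 42 of the 61 tested members. The median coefficient of variation was 10.6% in light damage and 14.1% in control, while over all genes tested it was 8.91% in light damage and 11.8% in control.

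Members with longer transcripts had lower log2 fold changes. Across the 61 members Spearman's coefficient between longest annotated transcript and log2 fold change was -0.48, and across 16804 genes with a length it was -0.15. These genes share the same libraries and are not independent, so no p is given. At a boundary of 7 kb, chosen after the values were seen, the 12 longer members had a median log2 fold change of -0.15, and the shorter ones one of 0.14. Of these 12, 9 had negative values, 3 were called lower and 0 higher by edgeR. Over all genes with a length, the 1415 longer than 7 kb had a median of -0.12 and the shorter ones one of 0.01. Of all genes tested, of any length, 7.85% were called lower and 5.32% higher. The shares called among genes longer than 7 kb are not given here, so the calls of the 12 long members have no like background. Among the long members called lower were Kcnh7 at 13.3 kb and Kcnk9 at 12.3 kb, while Kcnd1 at 5.29 kb was the short one.

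**Figure D4:**
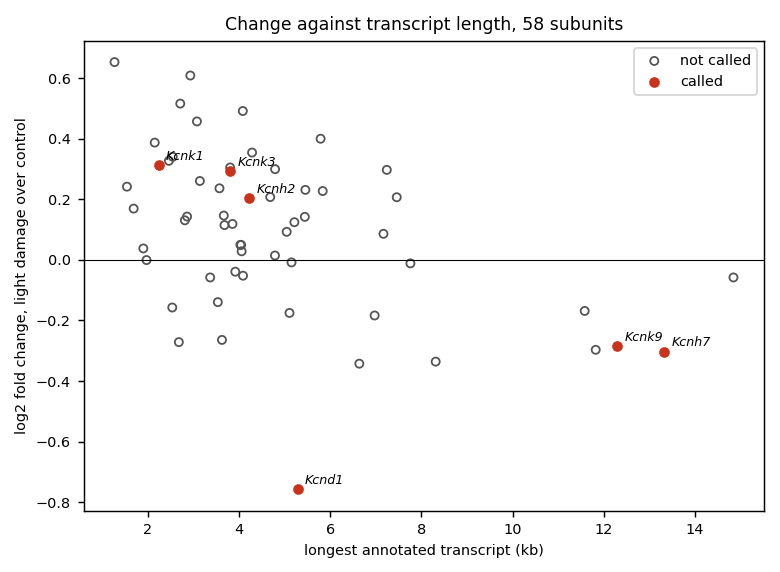
Log2 fold change (light damage over control) of 58 tested subunits against the length of the longest annotated transcript in kb, with called members filled. Kcnk9 and Kcnh7 lie beyond 12 kb and below 0, and the 3 members called higher are all shorter than 5 kb.

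A fit made after taking out the dependence of counts on GC content and on transcript length, chosen after seeing the data, changed some of these calls. Kcnd1 stayed lower, with a log2 fold change of -0.73 (adjusted p = 0.00675 by edgeR). Kcnh7 and Kcnk9 lost their calls, as given above. Kcnk1, Kcnk3 and Kcnh2 kept theirs at 0.28, 0.30 and 0.21. Spearman's coefficient over the members was -0.27 after this step, and 5 members were higher and 3 lower.

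**Figure D5:**
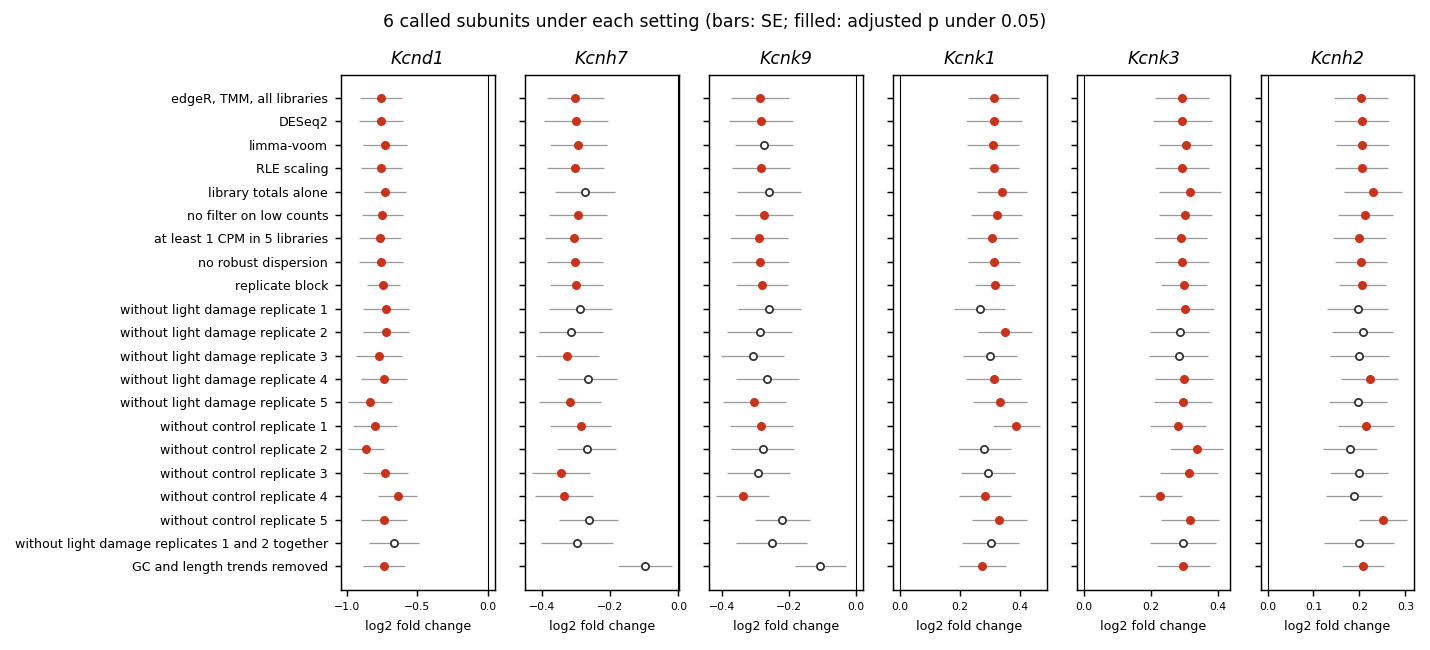
Log2 fold change (light damage over control) with its standard error for 6 called subunits under each setting, 1 panel a gene, with filled points for an adjusted p under 0.05. Kcnd1 is filled in every row but the one without light damage replicates 1 and 2.

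Genes that form or modify potassium channel complexes but fall outside the naming rule were given by a list of 25, of which 21 were tested. Of these 2 were higher and 1 lower, 14.3% against 13.2% of all genes tested, with a median log2 fold change of 0.14. Amigo1, an auxiliary protein of voltage-gated potassium channels, had 79.2, 72.7, 77.9, 72.2 and 76.6 CPM in light damage replicates 1 to 5, against 65.6, 69.2, 64.1, 59.1 and 69.6 CPM in control. Every light damage library exceeded every control. The log2 fold change came to 0.21 (SE 0.06, edgeR adjusted p = 0.0255), and the call was lost without light damage replicate 1 or 3 or control replicate 3 or 4 (adjusted p up to 0.0751). Kcnip3, a calcium-binding partner of A-type channels, had 63.4, 58.6, 58.1, 58.1 and 66.8 CPM in light damage replicates 1 to 5, against 54.0, 51.0, 51.9, 49.3 and 50.4 CPM in control, without overlap. Kcnip3 had a log2 fold change of 0.25 (adjusted p = 0.0121 by edgeR) and stayed called in all 10 fits that leave out 1 library. When light damage replicates 1 and 2 were both left out, edgeR called 0 of these partners, against 2.34% of all genes. There 5 had an unadjusted p under 0.05, a count with no share of all genes beside it.

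Pumps, exchangers and cotransporters that move potassium were listed together with regulators of them such as the kinase Wnk1, 24 genes with 23 tested. Of these 3 were higher and 3 lower, 26.1% against 13.2% of all genes tested, with a median log2 fold change of 0.03. Slc24a1, the sodium, calcium and potassium exchanger of rod outer segments, had a log2 fold change of -0.32 (adjusted p = 0.0448 by edgeR), a call lost in 9 of the 10 fits without 1 library, kept without control replicate 3, and lost after GC and length trends were taken out (adjusted p = 0.0751). Wnk1, a kinase that regulates such cotransporters, had a log2 fold change of -0.34 (adjusted p = 0.0113 by edgeR), and one of -0.17 after GC and length trends were taken out (adjusted p = 0.0226). Higher were Slc24a3, a related exchanger, by a log2 fold change of 0.26 (adjusted p = 0.0148), and the sodium-potassium pump subunit Atp1b3, by 0.72 (adjusted p = 0.0305), both by edgeR. Without light damage replicates 1 and 2 together, 2 of the 23 transport genes were called, Atp1b3 among them, against 2.34% of all genes. There Slc24a1 (adjusted p = 0.169), Wnk1 (adjusted p = 0.0775) and Slc24a3 (adjusted p = 0.102) were not called by edgeR, at log2 fold changes of -0.33, -0.33 and 0.26.

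Atp1b3 was uneven among the light damage libraries, at 160.4, 137, 105, 94.4 and 79.1 CPM in replicates 1 to 5, against 67.1 to 72.4 CPM in control, with replicates 1 and 2 the highest. Without those 2 libraries its log2 fold change was 0.41 (adjusted p = 0.0273 by edgeR). The Atp1b3 call was lost without light damage replicate 2 or 3 or control replicate 2, 3, 4 or 5, with adjusted p up to 0.0721 by edgeR.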

How the data were processed

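The authors deposited 1 table of whole-number counts per gene and library. Bowtie2, the build GRCm39, DESeq2 1.4.5 and RSEM 1.3.1 are listed, per the submitters' processing notes, with no step named for any. Rounding of estimates, division of shared reads and use of strand are not given in the sources used here. Symbols and transcript lengths came from GENCODE M21 by Ensembl identifier, with 19892 of 19999 identifiers matched.

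The tools were edgeR 4.0.16 as the main one, with DESeq2 1.42.0 and limma 3.58.1 as alternatives, under R 4.3.3. Genes kept by filterByExpr, 16852, were scaled by TMM and compared by the quasi-likelihood test with robust dispersion and group as the single term. P-values were adjusted by Benjamini-Hochberg over all genes tested. CPM is TMM scaled, and standard errors derive from the F statistic. Lowess with a span of 0.3 removed GC and length trends. On simulated counts for 16721 genes, 14.6% of 1.25-fold, 77.6% of 1.5-fold and 92% of 2-fold changes were called, with 6 false calls. Only 48 to 50 genes were changed at each fold, a smaller share than the 13.2% called in the data, so recovery in the data may differ. No pair of libraries held identical values. Alternatives were DESeq2, limma-voom, other scalings and filters, no robust dispersion, a replicate block, each library left out, and light damage replicates 1 and 2 left out together.

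Members and lists were chosen with earlier results of these data known. Named were called members, the highest per-kb member of each subfamily, further members including Kcnv2, Kcnj13 and Kcnj14, and from the 2 other lists called genes. Some genes that this rule takes are counted in the totals but not reported here by name. Others named were chosen after their values were seen. Exons of 20 members overlap another annotated gene. Figures used matplotlib 3.10.9.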

Additional observations from a re-analysis of the deposited data

Results flagged for a closer look

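Within each group of 5 libraries the named members were examined for a library far from the other 4, and 1 of 36 groups held one. For about 5% of groups this happens by chance. Kcnj14 had 399 CPM in light damage replicate 3, well below the other 4 light damage libraries. The same library had the lowest sum of rod markers, 64286 CPM, and control replicate 3 had the lowest of the controls, 68970 CPM. Set against 1000 counts of these markers, Kcnj14 had 6.21 counts in light damage replicate 3, within the range of 6.05 to 6.84 over the 5 light damage libraries. The part of rod content in this value was not tested.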

How the results depend on the processing

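The count of called members, 7 by the quasi-likelihood test of edgeR, was within 1.5 times of that with DESeq2, limma-voom, other scalings and filters, no robust dispersion and the GC and length fit. It was 1 without light damage replicates 1 and 2 together, and between 3 and 9 when 1 library was left out, with 3 without light damage replicate 1, 2 or 3. Of all genes, 2.34% were called without light damage replicates 1 and 2, against 13.2% with all 10 libraries. With all 10 libraries 896 genes were higher and 1323 lower. These were 440 and 723 without light damage replicate 1, 481 and 825 without replicate 2, and 399 and 728 without replicate 3. Of the channel partners 3 were called, and 1 to 5 without 1 library. Without light damage replicates 1 and 2, 0 were called and 5 had an unadjusted p under 0.05, with no share of all genes given. Of the potassium transport genes 6 were called, 10 with DESeq2, 2 without light damage replicates 1 and 2, and 3 to 7 without 1 library. DESeq2 also called more of all 16852 genes than edgeR, 1297 higher and 1590 lower. The median of the members stayed positive, between 0.07 and 0.16 without 1 library. With the replicate number as a block, 15 members, against 19.5% of all genes, and 6 partners were called. Same-numbered libraries correlated in their deviations by between 0.05 and 0.32, over 0.1 for 1 of 5 pairs, so the numbers were not taken as pairs. Of the values of named members under the alternatives, 308 kept their direction and side of the threshold, 36 lost a call, 8 gained one and 7 changed sign. The sign of Kcnf1 turned, to below 0 without light damage replicate 1 or 3 or control replicate 1, 3 or 4, within a range of -0.026 to 0.088 over the exclusions of 1 library, and it was -0.022 without light damage replicates 1 and 2. That of Kcnn1 turned without light damage replicate 4, within a range of -0.0023 to 0.096. None of these was called by edgeR at either sign. The causes were not tested. Changes of 1.25-fold were seldom recovered at this depth and number of libraries, so small differences of single subunits may have been missed.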

Other observations

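Voltage-gated sodium and calcium channel genes, a list of 32 with 30 tested, had 0 higher and 3 lower by edgeR and a median log2 fold change of -0.09. These 3 are 10% of the list, against 13.2% of all genes tested, of which 7.85% were lower. When light damage replicates 1 and 2 were both left out, Cacna1f was called (adjusted p = 0.029), and Cacna2d4 (adjusted p = 0.0745) and Scn8a (log2 fold change -0.34, adjusted p = 0.0623) were not, by edgeR. Beside the photoreceptor calcium channel genes Cacna1f and Cacna2d4, the sodium channel Scn8a was lower, with a mean of 100.2 ± 11.1 CPM in light damage, against 129.6 ± 8.67 CPM in control (n = 5 each, ± SD). For Scn8a the log2 fold change came to -0.37 (SE 0.07, edgeR adjusted p = 0.00569), and the Scn8a libraries did not overlap, with 87.5 to 116 CPM in light damage and 119 to 143 CPM in control. After GC and length trends were taken out, the Scn8a log2 fold change was -0.22 (adjusted p = 0.0343 by edgeR).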
